A study of Drosophila melanogaster with 5 samples.

Results

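The yolk of the Drosophila melanogaster egg is built from a few secreted yolk proteins, and the genes considered here are those of the 3 yolk proteins, Yp1, Yp2 and Yp3, and of yolkless (yl), the receptor that takes yolk into the oocyte. They were picked out by annotated gene symbol, a rule that uses no measured value, with earlier results of these data known. They make up 4 of 10124 genes with a value, and 6 of 11734 named probes: 1 probe each for Yp1, Yp2 and yl and 3 probes for Yp3.

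Yolk protein genes are transcribed in the fat body and in the follicle cells around the growing oocyte of adult females. The proteins pass through the haemolymph, bind the yl receptor on the oocyte surface, and are taken up by clathrin-mediated endocytosis and stored in yolk granules. The female form of the transcription factor Doublesex, ecdysone, juvenile hormone and feeding on protein are known to act on yolk protein synthesis.

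The flies were whole adult females, 14 days old, that had received yeast paste as their only food for 48 h. IPC-deficient females (IPCs are the insulin-producing cells, neurosecretory cells of the brain that release insulin-like peptides) carried the InsP3-Gal4 driver with UAS-RPR/HID, which expresses the cell death genes reaper and hid. Control females carried the same driver with UAS-LacZ, so the driver was common to both groups. RNA of both groups went onto each of 5 two-colour arrays from 2 biological repeats, with IPC-deficient RNA in Cy5 on 2 arrays and in Cy3 on 3 arrays. The sources used here give neither the number of flies per extract nor the repeat that each array came from.

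The table held 1 combined signed fold change per probe, the same number on every array where it was filled, so there was no spread between arrays or flies, no test across flies was possible and no p-value is given. Each fold change is shown on the log2 scale with its sign kept. The error used is the spread among probes for one gene, pooled over 289 genes with 629 probes of different value filled in all 10 spots (5 arrays with 2 spot copies each). This SD was 0.16 (log2), and it says nothing about variation from fly to fly. Which group is the numerator is nowhere given, and a negative value is read here as lower in IPC-deficient females. This reading is likely but not settled: it rests on the design naming the deficient flies first and on the value of -4.10 for tobi, an alpha-glucosidase gene named as a target of brain insulin. With the sign turned, every direction below would be the opposite.

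Of the yolk protein genes, Yp1 stood furthest from 0, at -0.35, or 1.28-fold lower in IPC-deficient females. Yp2 stood at -0.18 (1.13-fold lower) and Yp3 at -0.032 (1.02-fold). The receptor gene yl stood at -0.011 (1.01-fold). All 4 values were below 0, as were 51.9% of all genes, but the signs of Yp3 and yl turned with the processing: Yp3 stood at 0.0001 after subtraction of each array block's median, and yl at 0.021 after subtraction of the median of surrounding spots. None of the 4 reached 1.5-fold, a size reached by 5.35% of all genes on either side. RNA came from whole animals, so fewer cells of a type and less RNA per cell cannot be told apart.

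Yp1 was measured by 1 probe filled in all 10 spots, with 1 combined signed fold change of -1.28. The same number on each of the 5 arrays and in both spot copies is therefore no replication. Its size was 2.22 times the SD between probes. Among the 6531 genes whose every measured probe had a value on all 5 arrays, 183 genes (2.80%) stood lower than Yp1, and 92.3% stood closer to 0. Over all 10124 genes, 644 (6.36%) stood lower than Yp1. Yp1 was therefore toward the edge of the distribution while still inside the 1.5-fold limits. Of the 6531 genes, 0.704% passed these limits on the negative side and 1.96% on the positive side (2.66% in all).

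Yp2, the neighbour of Yp1 with which it is known to share regulatory DNA, was also measured by 1 probe filled in all 10 spots, with a signed fold change of -1.13. Its size was 1.11 times the SD between probes. Of the same 6531 genes, 12.8% stood lower, and of all 10124 genes 17.0%. The spots within 2 rows and 2 columns of the Yp2 probe had a median of -0.097 over 42 spots. These were counted around both spot copies, which are not independent. After this median was subtracted Yp2 stood at -0.081. Around the Yp1 probe the median was -0.021 over 45 spots counted in the same way, and Yp1 stood at -0.33 after the same step.

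Yp3, which lies apart from the other yolk protein genes, was the one member with several probes. All 3 were filled in all 10 spots, 2 of them with the same signed fold change of -1.002 and the third with -1.04. On the log2 scale these are -0.0028, -0.0028 and -0.061, a range of 0.058 that is smaller than the SD between probes of a gene. The gene value of -0.032 counted the equal probes once, and was -0.0028 when each was counted. Its size was 0.199 times the SD between probes, and 17.4% of the genes on all 5 arrays stood closer to 0. Probes of equal value were present in 122 of 1254 genes with 2 or more probes.

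The receptor gene yl encodes a member of the low-density lipoprotein (LDL) receptor family that is made in the germ line and placed on the oocyte surface. Its 1 probe, filled in all 10 spots, gave a signed fold change of -1.007. Of the genes on all 5 arrays, 47.3% stood lower than yl, and 5.63% stood closer to 0. The value lay well within the SD between probes.

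**Figure D1:**
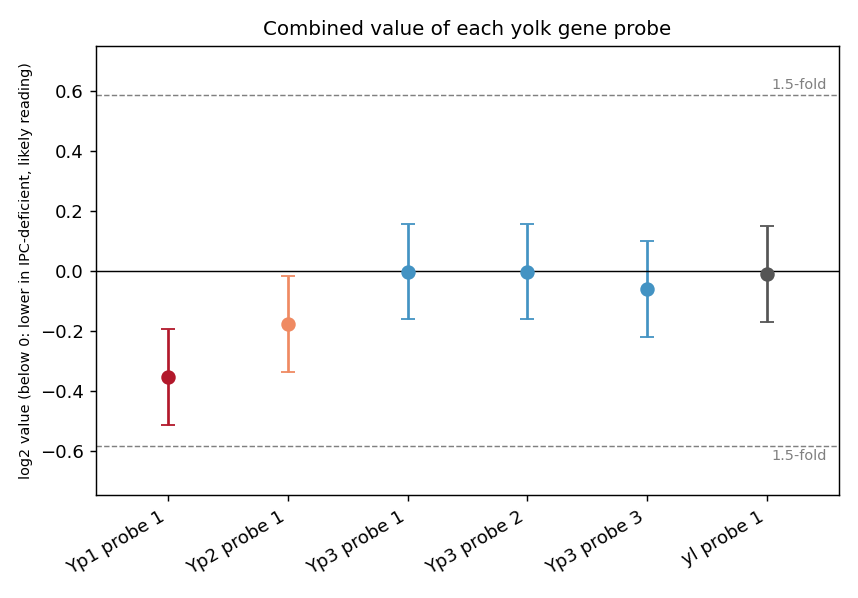
Combined log2 value of each of the 6 probes, with bars of 1 SD between probes of the same gene (0.16, from other genes and not from replicate flies) and dashed lines at 1.5-fold. Yp1 is the lowest at -0.35 and Yp2 follows at -0.18, while the 3 Yp3 probes and yl lie close to 0.

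**Figure D2:**
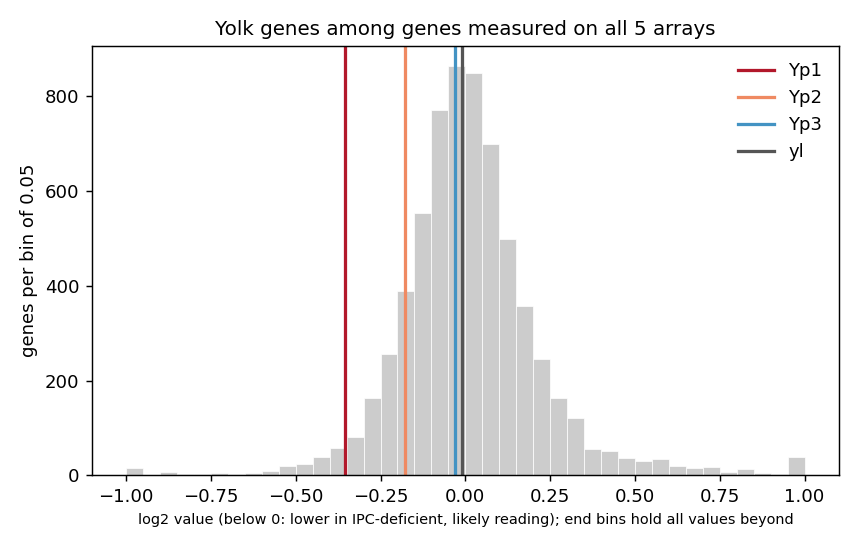
Numbers of genes (grey bars, bins of 0.05 on the log2 scale, the end bins holding all values beyond them) among 6531 genes measured on all 5 arrays, with vertical lines at the 4 yolk genes. Yp1 lies in the lower tail with 183 genes below it, and Yp3 and yl lie at the centre.

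The order from lowest to highest was Yp1, Yp2, Yp3 and yl, with Yp3 above yl where the equal Yp3 probes were each counted (-0.0028 against -0.011), where the probe with the most filled spots was taken, and after block medians were subtracted. Yp2 stood 0.18 above Yp1 and Yp3 stood 0.15 above Yp2, and each of these steps was smaller than 0.23, the SD expected for a difference of 2 probes. Neighbours in this order therefore lay within the error of the probes, but after the median of surrounding spots was subtracted Yp2 stood 0.25 above Yp1, just past that SD, and Yp3 stood 0.011 above Yp2. Yp3 stood 0.32 above Yp1 and yl stood 0.34 above Yp1. Of 402 pairs of different probes for one gene, each filled in all 10 spots, 8.46% lay at least as far apart as Yp3 and Yp1, and 24.9% at least as far apart as Yp2 and Yp1. The median distance of such pairs was 0.095 and 90% of them were at most 0.30 apart. With the median of surrounding spots subtracted, Yp3 stood 0.26 above Yp1, inside that distance, and yl stood 0.35 above Yp1. The distances of the pairs were taken without this step. The Yp3 value joins 2 distinct probe values, whereas each pair compares single probes. The yolk protein genes are related in sequence, and cross-hybridisation between their probes was not tested.

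**Figure D3:**
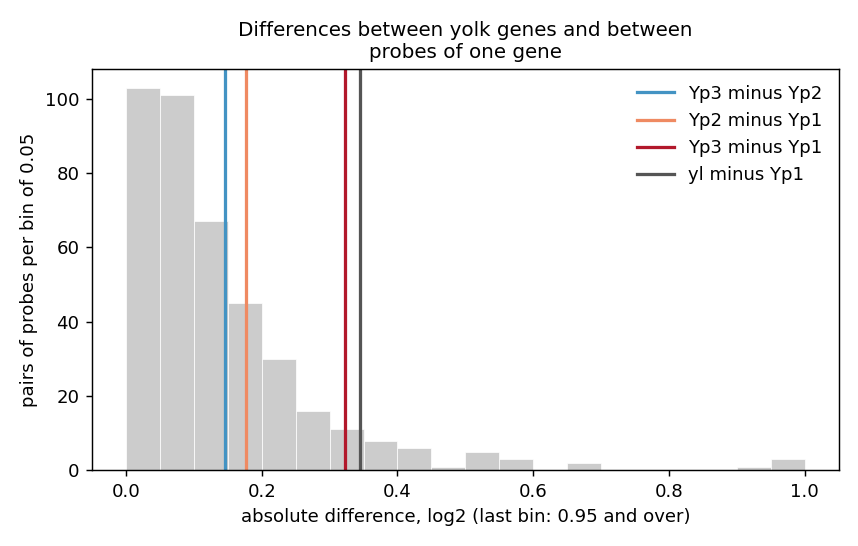
Absolute log2 differences within 402 pairs of different probes for one gene (grey bars, bins of 0.05, the last bin holding 0.95 and over), with lines at the differences between yolk genes. The lines for Yp3 minus Yp2 (0.15) and Yp2 minus Yp1 (0.18) fall inside the bulk. Those for Yp3 minus Yp1 (0.32) and yl minus Yp1 (0.34) fall beyond 0.30, the distance that 90% of pairs do not exceed. With the median of surrounding spots subtracted (not drawn), Yp3 minus Yp1 was 0.26, inside that distance.

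The genes next to the yolk genes on the chromosome showed no common direction. Yp1 and Yp2 adjoin each other. On the far side of Yp1 the nearest measured protein-coding gene, CG15312, stood at 0.24, and on the far side of Yp2 Cht6, a chitinase gene, stood at 0.037. Yp3 lay between Rtc1 at 0.16 and rdgB, a phosphatidylinositol transfer protein gene of photoreceptors, at -0.16. The measured neighbours of yl, CG13403 and CG11590, stood at -0.11 and 0.031. The gene table also lists an antisense RNA gene next to each of Yp1 and Yp2 and a microRNA gene next to yl, which were not analysed here.

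The yolk proteins are made while the egg chamber grows, before and during the deposition of the eggshell. Eggshell genes expressed by the same follicle cells stood on both sides of 0. Of 8 measured genes listed for the vitelline membrane, the inner eggshell layer, 8 were below 0 and 0 reached 1.5-fold. Their median was -0.23 against -0.0077 for all genes. The list also held dec and Femcoat, which are not known from the inner layer alone. Both stood below the list median, so that median does not describe the inner layer alone. Vm26Aa at -0.11, psd at -0.086 and Vm26Ac at -0.061, named outside the rule of size, were closer to 0 than the SD between probes. The highest, Fcp3C, named outside the rule of size, was at 0 within rounding. Vm32E stood at -0.54, dec (defective chorion) at -0.41 and Femcoat at -0.37. Vm34Ca, singled out after its value was seen, stood at -0.35, the same as Yp1 to the second decimal. Of the 8 genes, 3 stood lower than Yp1 (Vm32E, dec and Femcoat), 4 lower than Yp2 and 7 lower than Yp3. Of 7 chorion genes, whose products form the outer eggshell at the end of oogenesis, 6 were above 0 with a median of 0.22, and all 7 stood higher than each of the 4 yolk genes, though Cp7Fc (named outside the rule of size), the lowest at -0.0072, was only just above yl, and it was below Yp3 where Yp3 was taken at -0.0028, the value of 2 of its 3 probes. Cp18 stood at 0.67 (1.59-fold), Cp19 at 0.29 and Cp16 at 0.24.

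Other products carried to the egg, not all of them from follicle cells, gave 3 measured genes with a median of -0.0025. Those 2 genes were ndl (nudel, a protease of embryonic axis formation) at -0.26 and fs(1)N at 0.047. Of 8 measured germ line genes, 6 were below 0 (51.9% of all genes were) with a median of -0.093 and 0 reached 1.5-fold. BicD, which acts in transport into the oocyte, stood at -0.26, bam, which drives differentiation of germ line stem cell daughters, at -0.24 and otu at -0.12.

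The fat body, the other source of yolk proteins, had 7 measured genes listed as markers, 3 above 0 and 4 below, with a median of -0.023. The list was not specific to the fat body, so its counts and median do not describe that tissue alone. Fad2, a desaturase gene known from the oenocytes of females, stood at 1.02 (2.02-fold) and FASN1, a fatty acid synthase, at 0.31, while Desat1 stood at -0.093. The larval serum protein gene Lsp2, named here outside the rule of size, stood at -0.081. Fbp1 at 0.56 and Fbp2 at -0.55, also outside that rule, rested on 3 of 10 spots each. Of 4 genes of haemolymph lipid carriers and their assembly, 3 were below 0 with a median of -0.048. Mtp, which loads lipid onto lipoproteins, stood at -0.24, Apoltp at 0.081 and apolpp, the precursor of the main haemolymph lipoprotein, at -0.023. The gene apolpp is on the fat body list as well. The lists of ovary and fat body genes were thus both measured. Each probe was on all 5 arrays for 8 vitelline membrane, 7 chorion, 8 germ line and 5 fat body list genes. The fat body list included Fad2, known from oenocytes, and lipid synthesis genes that other tissues also express.

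Genes known to act on yolk synthesis stood on both sides of 0. Of 5 measured genes of sex determination, 4 were below 0 (51.9% of all genes were) with a median of -0.11, and 0 reached 1.5-fold. The zinc finger gene her stood at -0.25, tra2, a splicing factor that acts with tra, at -0.11 and tra at -0.061. The 3 probes of dsx, which encodes Doublesex and is named outside the rule of size, ranged from 0.048 to 0.18, all above 0. Of 8 hormone regulators, 5 were above 0 with a median of 0.0067 and 0 beyond 1.5-fold. The nuclear receptor gene usp stood at -0.26, its partner EcR, the ecdysone receptor, at 0.077, and br, an ecdysone-induced zinc finger gene, at -0.063 with probes from -0.39 to 0.997. The juvenile hormone receptor gene Met, named outside the rule of size, stood at 0.037. Of 3 factors known at yolk gene enhancers, the repressor Aef1 stood at -0.076 and the GATA factor srp at 0.038, with a list median of 0.038.

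Yolk proteins are sulphated on tyrosine before they are secreted. Of the 3 measured genes of sulphation, sll, a transporter of the sulphate donor, stood at -0.13 and Papss, which makes that donor, at 0.067. Tpst, the tyrosylprotein sulphotransferase, named outside the rule of size, had a gene value of -1.61. However, its probe filled in all 10 spots stood at 0.014, and the low gene value came from a probe at -3.23 that was filled in 2 spots. The list median of -0.13 was the value of sll and depended on that low Tpst value. Over sll and Papss alone the median was -0.030.

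On the side of uptake, LpR2, a lipophorin receptor and the one measured relative of yl among 6 listed LDL receptor family genes, stood at -0.0095 (yl, -0.011). All 4 measured genes of receptor folding and delivery were above 0, against 48.1% of all genes, with a median of 0.12 and a highest value of 0.14, inside the SD between probes. Among them Sec8 and Sec5, subunits of the exocyst, stood at 0.14 and 0.13, and boca, a chaperone for receptors of the LDL receptor family, at 0.099. Of 12 genes of clathrin-mediated uptake, 7 were below 0 with a median of -0.012. The clathrin light chain gene Clc stood at -0.33, the adaptor subunit AP-2alpha at -0.29 and Rme-8, an endosomal cochaperone, at -0.24. The clathrin heavy chain gene Chc, named outside the rule of size, stood at -0.011. The one gene of this list beyond 1.5-fold, lap, also outside that rule, had a gene value of -0.71, with a probe at -1.28 that was filled in 2 spots and another at -0.13 that was filled in all 10. Of 6 genes of lysosomal proteases and vacuolar sorting, 3 were above 0 and 3 below with a median of -0.0087. Among those with each probe on all 5 arrays, the cathepsin gene CtsK1 stood at -0.11, the sorting gene car at -0.028 and the cathepsin gene CtsL1 at 0.018.

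**Figure D4:**
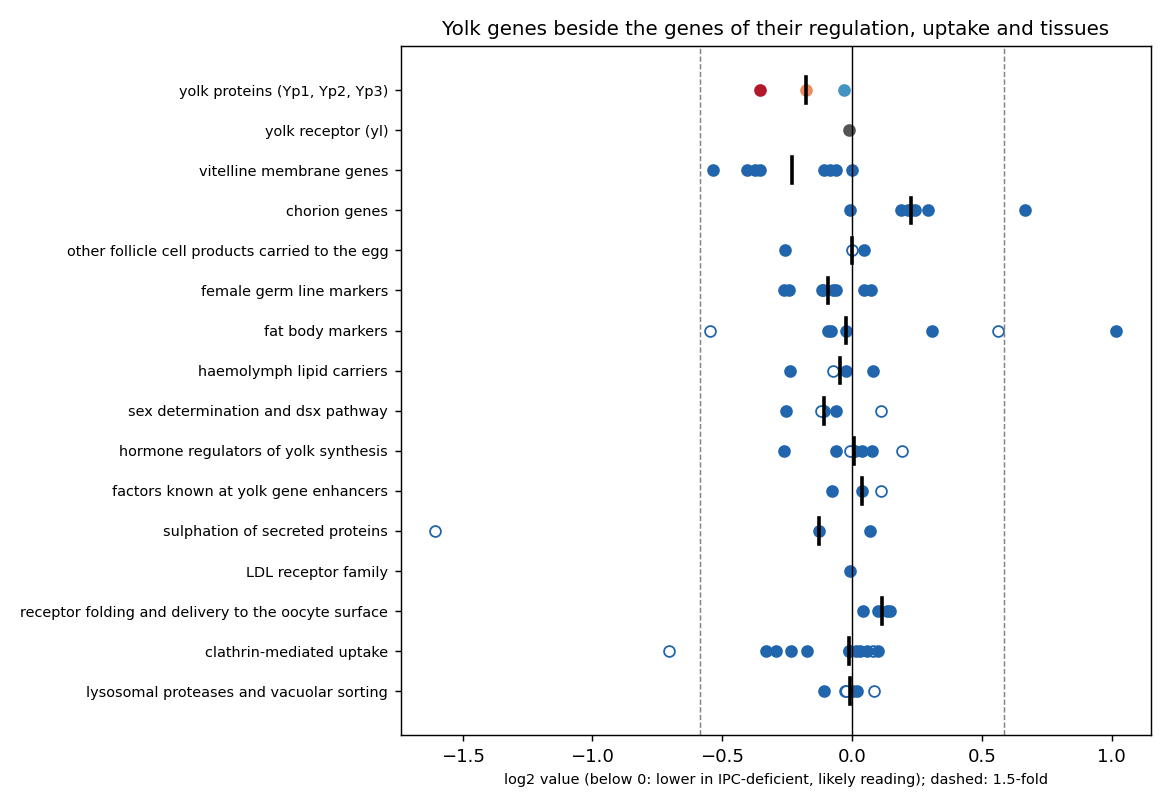
Log2 value of every measured gene of the 14 lists below the yolk protein genes and yl, with black bars at the medians of lists of 3 or more genes and dashed lines at 1.5-fold. Open circles are genes without a value on all 5 arrays for every measured probe. The list labels are broad, and not every gene under vitelline membrane, follicle cell products or fat body is specific to it. Genes listed for the vitelline membrane, dec and Femcoat among them, lie below 0 (median -0.23) and chorion genes mostly above (median 0.22). The yolk genes lie between these medians apart from Yp1 at -0.35.

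Over the 14 lists, 78 genes were measured, 44 of them below 0, against 51.9% of all genes. The shares of all genes to set beside the counts of each list are 51.9% below 0 and 48.1% above. Beyond 1.5-fold lay 2 genes on the positive side, Cp18 and Fad2, and 2 on the negative side, Tpst and lap, against 2.24% and 3.11% of all genes. Of the listed genes, 64 had a value for each measured probe on all 5 arrays, and among these the 2 positive genes were the only ones beyond 1.5-fold.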

How the data were processed

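Whole-female RNA was measured on 5 two-colour arrays. Per the labels and the design text, each array was scanned 3 times, and both spot copies and all hybridisations entered the normalization. The deposited values are signed fold changes made by the authors: 0 of 29507 features had an absolute value under 1, and of 27376 features filled in 2 or more columns, 0 differed between columns by more than 1e-06. Column medians on the log2 scale lay between -0.0005 and 0.0066. The sources used here name neither the background correction nor the normalization method. Precision is limited by the number of arrays. A limma model needs separate values per array and was not run.

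Log2 of the size was taken with the sign kept, and 32448 features were joined into 16224 probes, 38.6% of them filled in all 10 spots. Probes were named from an annotation of 2007, with symbols updated through a RefSeq table of Release 6 for 12068 probes by Entrez identifier and 113 by accession, and 355 kept. Probes were joined into genes by their median, with values equal to 5 decimals counting once. The members and lists were chosen with earlier results of these data known. Of each list, the text names up to 3 genes furthest from 0 among those with every measured probe on all 5 arrays, the neighbours of the members, and others where marked. A comparison of protein and promoter sequences, foreseen for relatives and motifs, was not made. The joining and the SD were tested on simulated data. Python 3.11.15, numpy 2.4.6, pandas 2.3.3 and matplotlib 3.10.9 were used.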

Additional observations from a re-analysis of the deposited data

How the results depend on the processing

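Across 8 alternatives that kept the sign, Yp1 stood between -0.36 and -0.33 and Yp2 between -0.19 and -0.081, and yl ranged from -0.015 to 0.021. Over 9 such alternatives Yp3 ranged from -0.070 to 0.0001, so the signs of yl and Yp3, and their order, are not fixed. Subtracting the median of surrounding spots and counting equal probes each were chosen after the data were examined. With the sign turned, Yp1 stood at 0.35 and Yp2 at 0.18, and the differences were -0.18 for Yp2 minus Yp1, -0.32 for Yp3 minus Yp1, -0.15 for Yp3 minus Yp2 and -0.34 for yl minus Yp1. Beyond 1.5-fold lay 227 genes on the positive and 315 on the negative side, 140 and 50 over probes on all 5 arrays, 110 negative with at least 5 filled spots, and 72 and 147 at 2-fold. Of 116 alternatives computed, the other 105 moved a value by less than the SD between probes or a count by less than 1.5 times. Leaving out single arrays was not run, since each value combines all arrays. No paired analysis was possible because the result comes from no test. The depth of signal over background is unknown.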
